A study of Mus musculus with 32 samples.

Results

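Epididymal white adipose tissue (eWAT), the large visceral fat depot of the male mouse, was compared between mice without *Gpr146* and wild-type mice after diet-induced obesity. The data were 8 arrays, 1 per mouse, of the 32 arrays of the series, which also covered liver, inguinal white fat and brown fat. The members were every row of the eWAT table that carries a gene symbol, 24646 genes, each with 1 log2 expression value per mouse. The 4 *Gpr146* KO mice lacked the gene in the whole body after CRISPR/Cas9 targeting, and the 4 WT mice were their littermates. Mice of both groups were C57BL/6J males aged 20 weeks, kept on a high-fat diet over 3 months, with an overnight fast before the tissue was taken. Although the KO samples carry both genotypes in their titles, every other label calls them KO, and so they were taken. Each array measured RNA of the whole depot, so a lower value for the genes of a cell type can mean fewer such cells or less of that RNA per cell, and these cannot be told apart.

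GPR146 is a G protein-coupled receptor known for raising lipoprotein secretion and plasma cholesterol through signalling in hepatocytes. In the obese mouse, eWAT takes up many macrophages. They gather around dying adipocytes, take up their lipid, enlarge their lysosomes and divide in place, while fibroblasts lay down collagen and the adipocytes lose part of their insulin-dependent lipid synthesis.

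The targeted gene was examined first. *Gpr146* had log2 values of 5.32, 5.84, 5.53 and 6.05 in WT replicates 1 to 4 and of 4.63, 3.63, 4.04 and 4.33 in KO replicates 1 to 4. All KO mice lay below all WT mice, with KO replicate 2 the lowest. The log2 fold change, KO minus WT, was -1.53 (standard error 0.22, adjusted p = 0.00823 from limma, a linear model per gene with variances moderated across genes and Benjamini-Hochberg adjustment over all 24646 genes; two-sided exact permutation test over the mice, p = 0.0286, the smallest that 4 against 4 allow). In the pairs of values given for genes from here on, the first is the log2 fold change and q is its adjusted p from the same fit. Around the locus, *Zfand2a* changed by -1.18 (q = 0.0136), *3110082I17Rik* by -0.53 (q = 0.0273) and *C130050O18Rik* by 3.06 (q = 0.0117). The last of these stood at 6.45, 3.47, 3.69 and 4.12 in WT and 7.89, 7.00, 7.48 and 7.61 in KO mice, so that WT replicate 1 lay much closer to the KO mice than the other WT mice did. Without that array, the adjusted p of *C130050O18Rik* was 0.00127. *3110082I17Rik* was not past the threshold without WT replicates 1, 2 and 4 or KO replicates 3 and 4 (q up to 0.084, without WT replicate 2).

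At an adjusted p below 0.05, 3758 of the 24646 genes (15.2%) differed between KO and WT eWAT, 1126 of them higher in KO (4.57% of all genes) and 2632 lower (10.7%). These shares are the background against which each gene group is read below. The 4 KO values all lay above the 4 WT values in 8.63% of genes and all below in 13% of them. Higher genes were 30.0% of the calls with the values as deposited and 48.9% after quantile normalization, so the balance between rises and falls rested on the scaling, while the median log2 fold change of all genes was 0.03. The count of calls was 2300, 1448, 2208 and 1659 without WT replicates 1 to 4 and 2203, 5429, 3211 and 2070 without KO replicates 1 to 4. KO replicate 2 carried the smallest change in many groups described below, and more genes were called without it. The weights that limma estimates per array, lower for arrays further from their group, were lowest in KO replicates 3 (0.36) and 2 (0.45). In the other arrays they lay between 1.05 and 1.74.

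The largest falls among genes past the threshold with no overlap between groups were in *Olfr111* (-3.92, q = 0.00833), *Dhrs9* (-3.72, q = 0.0142), *Il7r* (-3.47, q = 0.0267), *Tm4sf19* (-3.44, q = 0.0142), *Atp6v0d2* (-3.44, q = 0.0233), *Cpa3* (-3.33, q = 0.0123), *Tlr13* (-3.19, q = 0.0197), *Clec4d* (-3.15, q = 0.00956), *Trem2* (-3.12, q = 0.0294) and *Cdkl4* (-3.08, q = 0.006). *Atp6v0d2* is a subunit of the proton pump that osteoclasts and fused macrophages use, *Clec4d* and *Tlr13* are pattern receptors of myeloid cells, *Trem2* is a lipid-sensing receptor of macrophages and *Cpa3* is the carboxypeptidase of mast cell granules. The largest rises were in the small nuclear and nucleolar RNAs *Rnu3a* (3.65, q = 0.00352), *Snora75* (3.36, q = 0.000146), *Snora30* (3.01, q = 0.00538), *Snora36b* (3.00, q = 0.0124) and *Snora81* (2.94, q = 0.00782), in *C130050O18Rik*, and in the protein-coding genes *Cyp2e1* (3.64, q = 0.0117), *Fam13a* (2.90, q = 0.00823), *Acsm3* (2.81, q = 0.026) and *Gm454* (2.71, q = 0.00956). *Cyp2e1*, a cytochrome P450 that oxidizes ethanol and ketone bodies, stood at 8.27, 5.42, 8.75 and 6.27 in WT and at 11.07, 10.06, 10.73 and 11.41 in KO eWAT. WT replicates 2 and 4 were far below the other WT mice for it, and every KO mouse was above all WT mice. *Il7r*, *Atp6v0d2*, *Tlr13*, *Trem2* and *Acsm3* were each not past the threshold without at least 1 of the following, WT replicates 1, 2, 3 and 4 and KO replicates 1, 3 and 4 (q up to 0.079, *Trem2* without KO replicate 4).

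The label of the depot was examined against markers. Transcripts of adipocytes stood high in every array, with *Fabp4* between 11.23 and 11.56 and *Cd36* between 11.09 and 11.30, where the median of an array lay between 3.13 and 3.18. Of the markers of the visceral mesothelium, which covers this depot, *Upk3b* measured 8.29, 7.48, 6.54 and 7.26 in WT and 6.01, 6.07, 5.77 and 5.23 in KO mice and *Wt1* 5.23, 5.21, 4.68 and 5.02 and 4.47, 5.10, 4.95 and 4.86. Markers of neighbouring or foreign tissue gave few calls, with 0 of 10 epididymis genes (smallest p in *Crisp1*, 0.30, q = 0.12, and *Rnase10*, -0.17, q = 0.144), 0 of 6 testis genes (*Prm1*, 0.15, q = 0.335, and *Odf1*, -0.19, q = 0.282), 0 of 6 Schwann cell genes (*Sox10*, 0.30, q = 0.215), 1 of 8 liver genes (*Ahsg*, -0.55, q = 0.0206), 1 of 10 skeletal muscle genes (*Myl1*, 0.76, q = 0.0377) and 1 of 5 erythroid genes past the threshold. The mean log2 value of the 10 epididymis markers lay between 1.96 and 2.31 over the 8 mice, with KO replicate 1 the highest, and that of the 6 testis markers between 3.08 and 3.19. The part of these cells in any result was not tested. One mouse stood apart in lymphocyte genes, as described with them below. *Fabp4*, *Ahsg* and *Myl1* were each not past the threshold without at least 1 of the following, WT replicates 1, 2, 3 and 4 and KO replicates 1, 3 and 4 (q up to 0.114, *Fabp4* without WT replicate 4). *Odf1* was past it without KO replicate 2 (q = 0.0174).

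**Figure D1:**
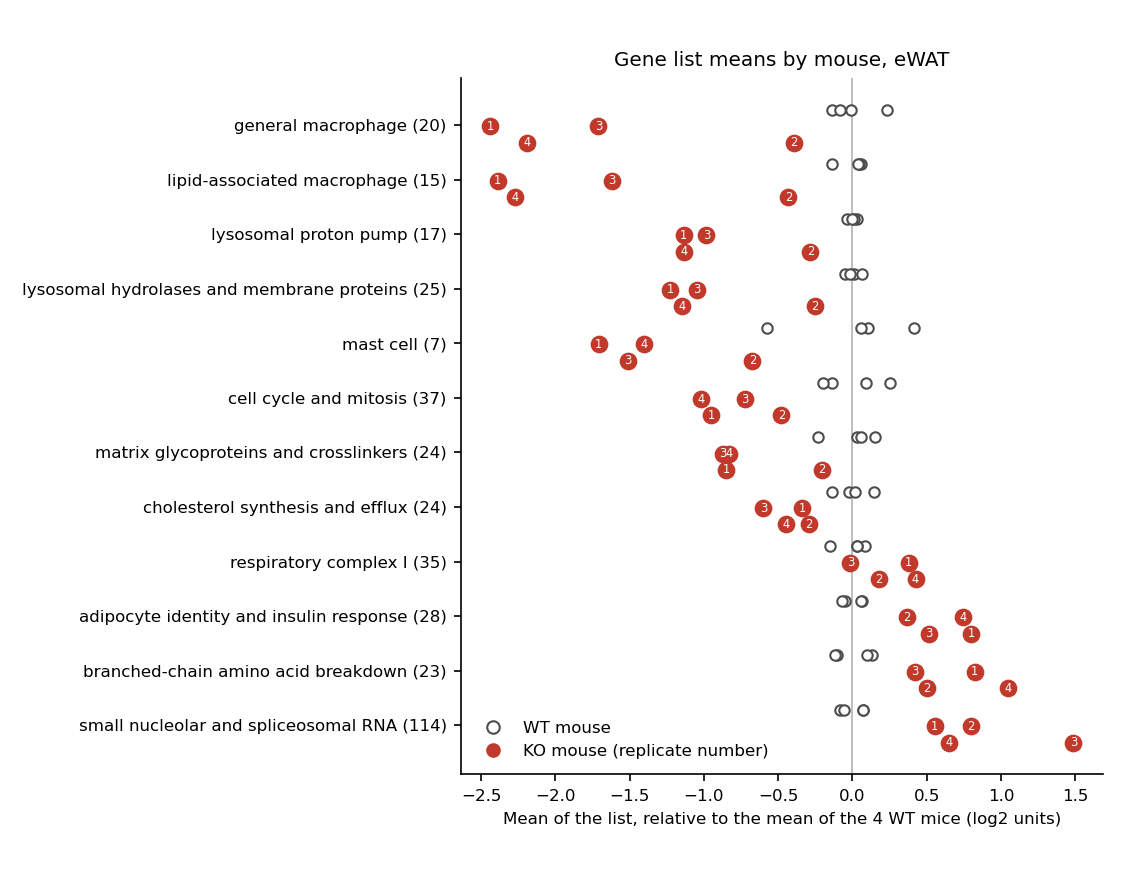
Mean log2 value of the members of 12 gene lists in each mouse, relative to the mean of the 4 WT mice (horizontal axis, log2 units), with WT mice as open circles and KO mice as filled points marked by replicate number. The KO means of the general macrophage list run from -2.44 to -0.39, with replicate 2 nearest to WT, and those of the branched-chain amino acid list from 0.42 to 1.05.

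Macrophage genes fell in KO eWAT. Of 20 genes that macrophages in general express, 18 fell and 0 rose, with a median log2 fold change of -1.72 over the list against 0.03 over all genes. *Cd68*, a glycoprotein of the macrophage lysosome and the usual marker of the cells, measured 10.75, 10.66, 10.87 and 10.76 in WT eWAT and 7.32, 10.36, 8.55 and 7.76 in KO eWAT. All KO mice were below all WT mice, but replicate 2 lay just under the WT range while the other KO mice were far below it. The fold change of *Cd68* was -2.26 (q = 0.023). The integrin chain *Itgam* fell by the same pattern, from 7.84 ± 0.04 (SD, n = 4 mice) to 5.35 ± 1.20 (SD, n = 4), -2.49 (q = 0.0127), as did *Emr1*, a surface marker of macrophages (-2.34, q = 0.0195), the membrane protein *Ms4a7* (-2.32, q = 0.0166), the complement chains *C1qb* (-2.22, q = 0.0226), *C1qc* (-1.79, q = 0.0206) and *C1qa* (-1.63, q = 0.027), and the growth factor receptor *Csf1r* (-1.56, q = 0.0191). The members not past the threshold were *Mertk* (-0.27, q = 0.195), a receptor for dying cells, and *Aif1* (-0.24, q = 0.457). *Cd68*, *Emr1*, *Ms4a7*, *C1qb*, *C1qc*, *C1qa* and *Csf1r* were each not past the threshold without at least 1 of the following, WT replicates 1, 2, 3 and 4 and KO replicates 1, 3 and 4 (q up to 0.0737, *C1qa* without WT replicate 3).

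Relative to the WT mean, the mean of these 20 genes was -2.44, -0.39, -1.71 and -2.19 log2 units in KO replicates 1 to 4, whereas the WT mice lay between -0.14 and 0.23. KO replicate 2 was therefore close to WT and the other KO mice were well below. Fewer calls were made when most single arrays were left out, 10, 3, 4 and 5 without WT replicates 1 to 4 and 9, 18, 14 and 5 without KO replicates 1 to 4, and the median of the list then lay between -2.19 and -1.47. No array other than KO replicate 2 gave 18 calls when left out.

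Lipid-associated macrophages are the state described around dying adipocytes in obesity, and 14 of its 15 genes fell. The list's median was -1.45. *Trem2*, whose product senses lipid and drives this state, measured 8.62, 8.56, 8.63 and 8.50 in WT mice and 3.59, 8.10, 5.85 and 4.31 in KO mice. The 4 WT mice were nearly equal, KO replicate 2 was slightly lower and the other KO mice were lower by several log2 units. *Gpnmb*, a glycoprotein of lysosome-rich macrophages, showed the same order with 10.78, 10.92, 10.87 and 10.87 and 6.69, 10.43, 8.58 and 7.17 (-2.64, q = 0.0288). The integrin chain *Itgax*, or CD11c, changed by -2.69 (q = 0.0281), osteopontin (*Spp1*) by -2.38 (q = 0.0111), the elastase *Mmp12* by -2.26 (q = 0.0279) and the lysosomal lipase *Lipa* by -1.87 (q = 0.018). *Lpl*, which macrophages and adipocytes both express, was not past the threshold (0.39, q = 0.121). Leaving out 1 array, the calls numbered 8, 5, 8 and 6 without WT replicates 1 to 4 and 8, 14, 11 and 7 without KO replicates 1 to 4. *Gpnmb*, *Itgax*, *Mmp12* and *Lipa* were each not past the threshold without at least 1 of the following, WT replicates 1, 2, 3 and 4 and KO replicates 1, 3 and 4 (q up to 0.0786, *Gpnmb* without WT replicate 2). *Lpl* was past it without KO replicate 3 (q = 0.0476).

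Markers of the resident macrophages of fat fell in part. Of 12 genes, 4 fell and 1 rose, and the median was -0.67. Among all genes 10.7% fell and 4.57% rose. The folate receptor *Folr2* (-2.47, q = 0.0146), the complement receptor *Vsig4* (-1.67, q = 0.00929), the mannose receptor *Mrc1* (-1.33, q = 0.021) and the lectin *Clec10a* (-1.05, q = 0.0215) fell. *Retnla*, which alternatively activated macrophages and adipose tissue secrete, rose (1.04, q = 0.0308), from 8.16, 6.70, 7.49 and 7.46 to 8.22, 8.86, 8.32 and 8.54, with KO replicate 1 only just above WT replicate 1. The fold changes of *Timd4* (-0.21, q = 0.528), *Cd163* (0.14, q = 0.72) and *Lyve1* (-1.33, q = 0.084) were not past the threshold. Without KO replicate 2 there were 7 falls, and *Retnla* lost its call without WT replicates 2, 3 and 4 or KO replicates 1, 3 and 4. *Mrc1*, *Clec10a* and *Retnla* were each not past the threshold without at least 1 of the following, WT replicates 1, 2, 3 and 4 and KO replicates 1, 3 and 4 (q up to 0.079, *Retnla* without WT replicate 4). *Lyve1* was past it without KO replicate 2 (q = 0.00131).

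**Figure D2:**
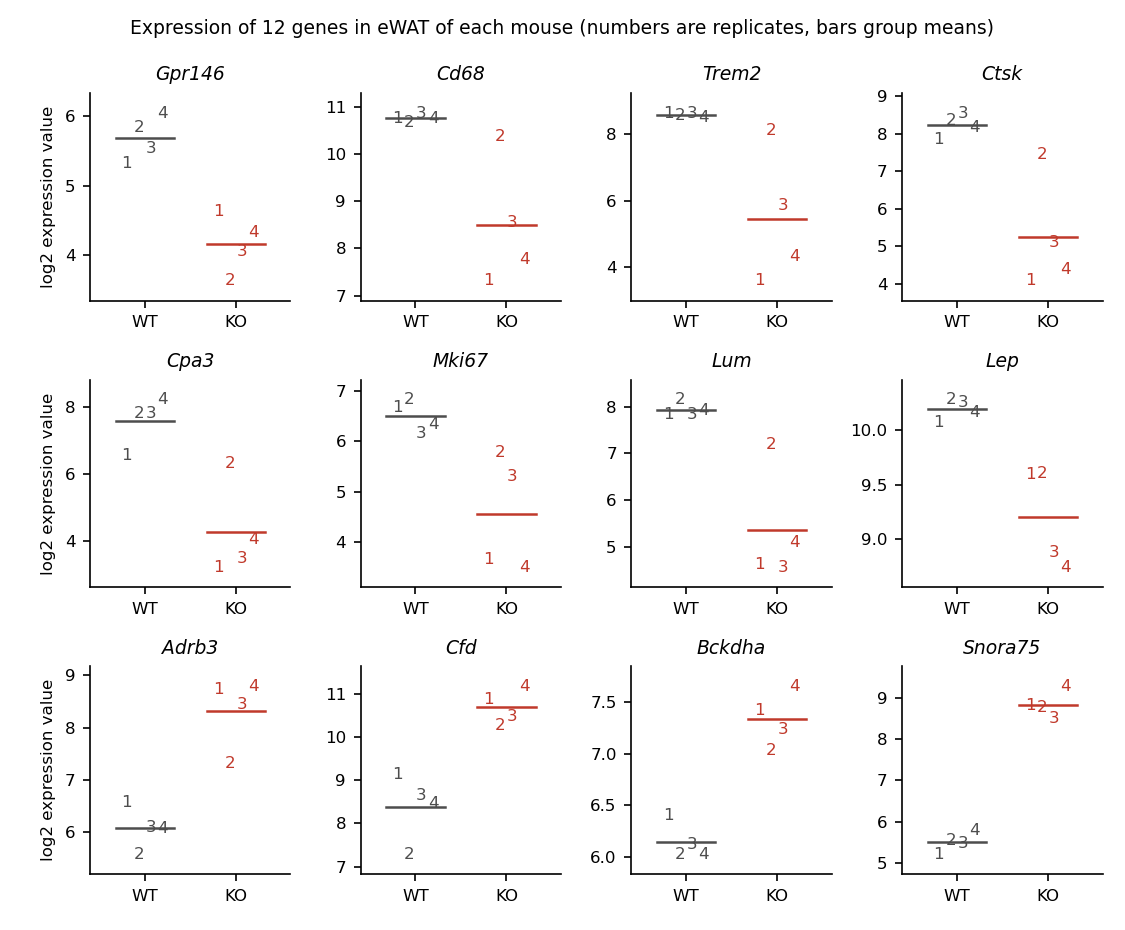
Log2 expression value (vertical axis) of 12 genes in the 4 WT and 4 KO mice; each point is a mouse marked by its replicate number, and the bar is the mean of the group. In *Cd68*, *Trem2*, *Ctsk* and *Mki67* KO replicate 2 lies between the WT mice and the other KO mice, whereas for *Lep* KO replicates 1 and 2 share the value 9.60.

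Lysosomal genes fell in KO eWAT. The lysosome is acidified by a proton pump, the V-ATPase, and of 17 genes of the pump and its accessory proteins 12 fell and 0 rose, with a median of -0.83. The d2 subunit *Atp6v0d2* stood at 10.05, 10.11, 10.21 and 10.10 in WT and at 5.03, 9.42, 7.13 and 5.16 in KO mice. The a3 subunit *Tcirg1* (-1.60, q = 0.0124), the a1 subunit *Atp6v0a1* (-1.48, q = 0.0103) and the catalytic subunit *Atp6v1a* (-1.31, q = 0.0122) fell as well, whereas *Atp6v0c*, the proteolipid ring subunit, gave 0.01 (q = 0.978) and *Atp6v1f* 0.33 (q = 0.164). Of 25 hydrolases, membrane proteins and regulators of the lysosome 21 fell and 0 rose, with a median of -0.71. The lysosomal lists share *Atp6v0d2*, *Lipa* and others with the lipid-associated macrophage list, so their counts are not separate results. Among them were cathepsin K (*Ctsk*, -2.98, q = 0.0156), *Lipa*, the glucuronidase *Gusb* (-1.60, q = 0.0157) and cathepsin A (*Ctsa*, -1.20, q = 0.0108). *Ctsk* measured 7.83, 8.35, 8.55 and 8.17 in WT and 4.08, 7.44, 5.09 and 4.38 in KO eWAT. *Ctsk* and *Gusb* were not past the threshold without WT replicate 2 (q up to 0.0516, *Gusb*).

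Transcription of lysosomal genes is driven by the MiT/TFE factors, of which *Mitf* (-0.71, q = 0.0202) and *Tfe3* (-0.50, q = 0.0177) fell and *Tfeb* was not past the threshold (-0.19, q = 0.192). These factors bind the palindrome TCACGTGA, the core of the CLEAR element. The 250 bases before the annotated start, available from RefSeq (GRCm38.p6) for 31 of the 42 lysosomal genes, held this motif in 3 genes (9.68%), against 0.803% of the promoters of 27025 genes. The motif is its own reverse complement, so 1 search covers both strands. Of the 31 genes 23 fell past the threshold, with or without the motif, and the 3 with it were among them. *Atp6v1a* fell as above, *Ctsd*, which encodes cathepsin D, by -0.64 (q = 0.0251), and *Mcoln1*, the calcium channel of the lysosome, by -0.42 (q = 0.0154). Whether the motif had a part in these falls was not tested. The 3 promoters are printed 5′ to 3′ on the gene's strand with the motif in capitals.
Atp6v1a, chr16:44139260-44139509 (- strand): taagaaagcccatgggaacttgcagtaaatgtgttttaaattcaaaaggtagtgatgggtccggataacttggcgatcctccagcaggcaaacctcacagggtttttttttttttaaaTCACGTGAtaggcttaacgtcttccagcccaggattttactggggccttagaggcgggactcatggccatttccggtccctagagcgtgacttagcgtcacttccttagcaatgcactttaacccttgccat
Ctsd, chr7:142387828-142388077 (- strand): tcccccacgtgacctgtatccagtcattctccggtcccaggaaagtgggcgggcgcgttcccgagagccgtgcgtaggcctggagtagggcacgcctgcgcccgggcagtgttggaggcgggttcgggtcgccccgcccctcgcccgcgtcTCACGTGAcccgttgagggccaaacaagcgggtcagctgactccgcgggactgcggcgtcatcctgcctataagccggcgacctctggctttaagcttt
Mcoln1, chr8:3500269-3500518 (+ strand): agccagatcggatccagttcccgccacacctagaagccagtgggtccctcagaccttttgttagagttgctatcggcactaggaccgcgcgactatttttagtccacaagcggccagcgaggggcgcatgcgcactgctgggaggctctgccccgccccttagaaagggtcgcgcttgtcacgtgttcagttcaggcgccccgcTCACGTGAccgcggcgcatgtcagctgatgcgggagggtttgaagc
A match of these letters describes the sequence and is not a measured site. The 2 lysosomal lists also depended on single arrays. The pump counted 9, 6, 7 and 7 without WT replicates 1 to 4 and 7, 14, 9 and 6 without KO replicates 1 to 4, and the hydrolases and membrane proteins counted 16, 6, 14 and 10 without WT replicates 1 to 4 and 13, 24, 17 and 14 without KO replicates 1 to 4. *Mitf*, *Tfe3* and *Ctsd* were each not past the threshold without at least 1 of the following, WT replicates 1, 2, 3 and 4 and KO replicates 1, 3 and 4 (q up to 0.0713, *Ctsd* without WT replicate 2).

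Sensors of the innate immune system fell in large part. Of 27 Toll-like receptors, inflammasome components and related cytokines 16 fell and 0 rose, with a median of -0.57. The endosomal receptors *Tlr13*, *Tlr8* (-2.48, q = 0.0161) and *Tlr7* (-1.68, q = 0.0229), the TLR4 partner *Ly96* (-1.98, q = 0.0109) and caspase 1 (*Casp1*, -1.85, q = 0.0157) were among them. *Tnf* measured 4.19, 4.50, 5.04 and 4.83 in WT and 3.13, 3.78, 3.70 and 3.41 in KO mice (-1.14, q = 0.0104), and the interleukin 1 antagonist *Il1rn* changed by -1.86 (q = 0.00981). *Il1b* (-0.09, q = 0.866), *Il6* (-0.02, q = 0.931) and *Nlrp3* (0.01, q = 0.979) were not past the threshold. Leaving out 1 array gave 13, 10, 10 and 10 without WT replicates 1 to 4 and 11, 17, 13 and 11 without KO replicates 1 to 4. *Tlr7* and *Casp1* were each not past the threshold without at least 1 of the following, WT replicates 1, 2, 3 and 4 and KO replicates 1, 3 and 4 (q up to 0.0693, *Tlr7* without WT replicate 2).

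Chemokines, which draw leukocytes into tissue, fell in part. Of 34 ligands 10 fell and 2 rose, the rises being near the share of all genes (4.57% higher). The monocyte attractant *Ccl2* measured 6.80, 7.43, 6.33 and 6.70 in WT and 4.30, 6.45, 4.59 and 4.19 in KO eWAT. KO replicate 2 lay within the WT range and the other KO mice far below it, and the fold change was -1.93 (q = 0.0235). *Ccl3* (-2.12, q = 0.0217), *Ccl6* (-1.57, q = 0.0298) and *Ccl9* (-1.51, q = 0.0294) fell without overlap. The interferon-induced T cell attractant *Cxcl9* rose from 7.39, 7.43, 7.66 and 7.79 to 8.81, 8.44, 8.58 and 9.20 (1.19, q = 0.00782), and *Ppbp*, the precursor of a platelet and neutrophil attractant, rose by 1.83 (q = 0.0142). Of 23 receptors 4 fell (2 to 7 with 1 array left out) and 0 rose, among them *Ccrl2* (-1.21, q = 0.0206), *Ccr3* (-1.0, q = 0.00987) and the scavenging receptor *Darc* (-0.60, q = 0.0173), whereas the CCL2 receptor *Ccr2* was not past the threshold (-0.27, q = 0.351). The 10 falls of ligands became 5, 2, 4 and 2 without WT replicates 1 to 4 and 4, 14, 4 and 2 without KO replicates 1 to 4, and *Ccl2* kept its call only without WT replicate 3 or KO replicate 2. *Ccl2*, *Ccl3*, *Ccl6*, *Ccl9*, *Ccrl2* and *Darc* were each not past the threshold without at least 1 of the following, WT replicates 1, 2, 3 and 4 and KO replicates 1, 3 and 4 (q up to 0.0828, *Ccl6* without WT replicate 2).

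Of 10 genes of MHC class II presentation 1 fell, *H2-DMb1* (-0.69, q = 0.0143), near the share of all genes (10.7% lower). The median of the list was -0.43, and 1 to 6 fell with 1 array left out, the most without KO replicate 2. Among 30 interferon-stimulated genes 5 fell (2 to 8 with 1 array left out), with *Oas1a* (-0.89, q = 0.0463), *Bst2* (-0.79, q = 0.0228), *Ifi44* (-0.79, q = 0.0195) and *Oasl1* (-0.73, q = 0.00908) without overlap, and 3 rose (2 with any 1 array left out), namely *Ifi27l2a* (0.71, q = 0.0117), *Irf1* (0.52, q = 0.0128) and *Irgm1* (0.30, q = 0.0492). The median of that list was -0.02, and among all genes 10.7% fell and 4.57% rose. *Oas1a*, *Bst2*, *Ifi44* and *Irgm1* were each not past the threshold without at least 1 of the following, WT replicates 1, 2, 3 and 4 and KO replicates 1, 2, 3 and 4 (q up to 0.127, *Oas1a* without WT replicate 4).

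Other leukocytes were examined by their markers. Mast cell genes fell in 4 of 7 cases and rose in none. *Cpa3* measured 6.56, 7.81, 7.80 and 8.22 in WT and 3.22, 6.32, 3.48 and 4.04 in KO mice, the chymases *Mcpt4* and *Cma1* changed by -2.07 (q = 0.0119) and -1.21 (q = 0.0105), and the tryptase *Tpsb2* by -2.13 (q = 0.0159). WT replicate 1 was the lowest WT mouse for *Cpa3*, close to KO replicate 2. The receptor *Kit* was not past the threshold (-0.38, q = 0.373), and the mast cell count stayed at 3 or 4 of 7 with any array left out. Of 22 genes of T and NK cells 1 fell, *Ncr1* (-0.76, q = 0.0121), an activating receptor of NK cells. That is below the share of all genes (10.7% lower). The 8 neutrophil genes gave 0 calls, with *Csf3r* (-0.29, q = 0.296) and *Mmp8* (0.13, q = 0.34) having the smallest p, 0 of 12 B cell genes passed (*Cr2*, 0.21, q = 0.14, and *Fcrla*, 0.19, q = 0.165, having the smallest p), and 1 of 8 dendritic cell genes rose (*Zbtb46*, 0.41, q = 0.0383). KO replicate 3 stood apart in B cell genes, with a list mean of 1.33 relative to WT against -0.09 to 0.16 in the other KO mice, and with 4.95 for *Ms4a1*, or CD20, where the others measured 2.90, 2.24 and 2.27. *Tpsb2* and *Zbtb46* were each not past the threshold without at least 1 of the following, WT replicates 1, 2, 3 and 4 and KO replicates 1, 3 and 4 (q up to 0.095, *Zbtb46* without KO replicate 1).

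Genes of cell division fell in KO eWAT. Of 37 genes 28 fell and 0 rose, with a median of -0.83. The proliferation marker *Mki67* measured 6.67, 6.82, 6.16 and 6.32 in WT and 3.66, 5.79, 5.31 and 3.50 in KO eWAT (-1.93, q = 0.0266). Cyclin B2 (*Ccnb2*, -1.88, q = 0.0107), the spindle protein *Tpx2* (-1.72, q = 0.00956), the midzone protein *Prc1* (-1.38, q = 0.00929), cyclin A2 (*Ccna2*, -1.35, q = 0.0194), the kinase *Cdk1* (-1.22, q = 0.0103) and the replication clamp *Pcna* (-1.16, q = 0.0103) fell as well, without overlap. Topoisomerase *Top2a* was an exception, with 6.70, 6.70, 6.27 and 6.16 in WT and 6.47, 6.56, 6.95 and 6.26 in KO mice (0.10, q = 0.733). Relative to WT, the list mean was -0.95, -0.48, -0.73 and -1.02 in KO replicates 1 to 4, so that replicate 2 again lay nearest to WT. Calls with 1 array fewer were 19, 15, 21 and 23 without WT replicates 1 to 4 and 18, 27, 24 and 20 without KO replicates 1 to 4. *Mki67* and *Ccna2* were each not past the threshold without at least 1 of the following, WT replicates 1, 2, 3 and 4 and KO replicates 1 and 4 (q up to 0.0807, *Mki67* without WT replicate 2).

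Many promoters of mitotic genes carry CCAAT boxes, to which the factor NF-Y binds. The letters CCAAT, searched on both strands of the 250 bases before the start, were found in 25 of the 31 cell cycle genes with a RefSeq promoter (80.6%) and in 34.5% of all promoters. Promoters were matched by symbol or synonym, and the 1 taken for *Tpx2*, on chromosome 17, may belong to another gene that shares the name. Past the threshold were 23 of the 31 genes and 20 of the 25 with a box, and the promoter taken for *Tpx2* is counted in each of these numbers. *Top2a*, with 6 boxes, was not past it, and a link between the boxes and the falls was not tested. The promoter of *Ccnb2* is given as an example with several boxes on the listed strand or its complement, each in capitals, 5′ to 3′.
Ccnb2, chr9:70421555-70421804 (- strand): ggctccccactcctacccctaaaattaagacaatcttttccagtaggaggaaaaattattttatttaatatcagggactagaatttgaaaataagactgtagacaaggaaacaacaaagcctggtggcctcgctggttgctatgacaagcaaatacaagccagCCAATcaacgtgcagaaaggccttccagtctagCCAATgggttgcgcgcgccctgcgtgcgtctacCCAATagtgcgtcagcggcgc
Its 3 boxes are a description of the sequence, and binding was not measured. The motif TTTGAA, known from cell cycle promoters and searched on both strands, was present in 22.6% of the list and in 16.3% of all promoters. Every list gene with it also had a CCAAT box, *Ccnb2* among them, where it stands above in small letters. The same search for GAGGAAGT, a form of the site of the myeloid factor PU.1, found it in 3 of the 25 macrophage genes with a promoter (12%, *C1qc*, *Mmp12* and *Spp1*) and in 2.44% of all promoters, and the DR1 repeat that PPARG binds, searched as an exact pair of its consensus half-sites, was in 0 of 20 adipocyte genes and in 0.037% of all promoters.

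**Figure D3:**
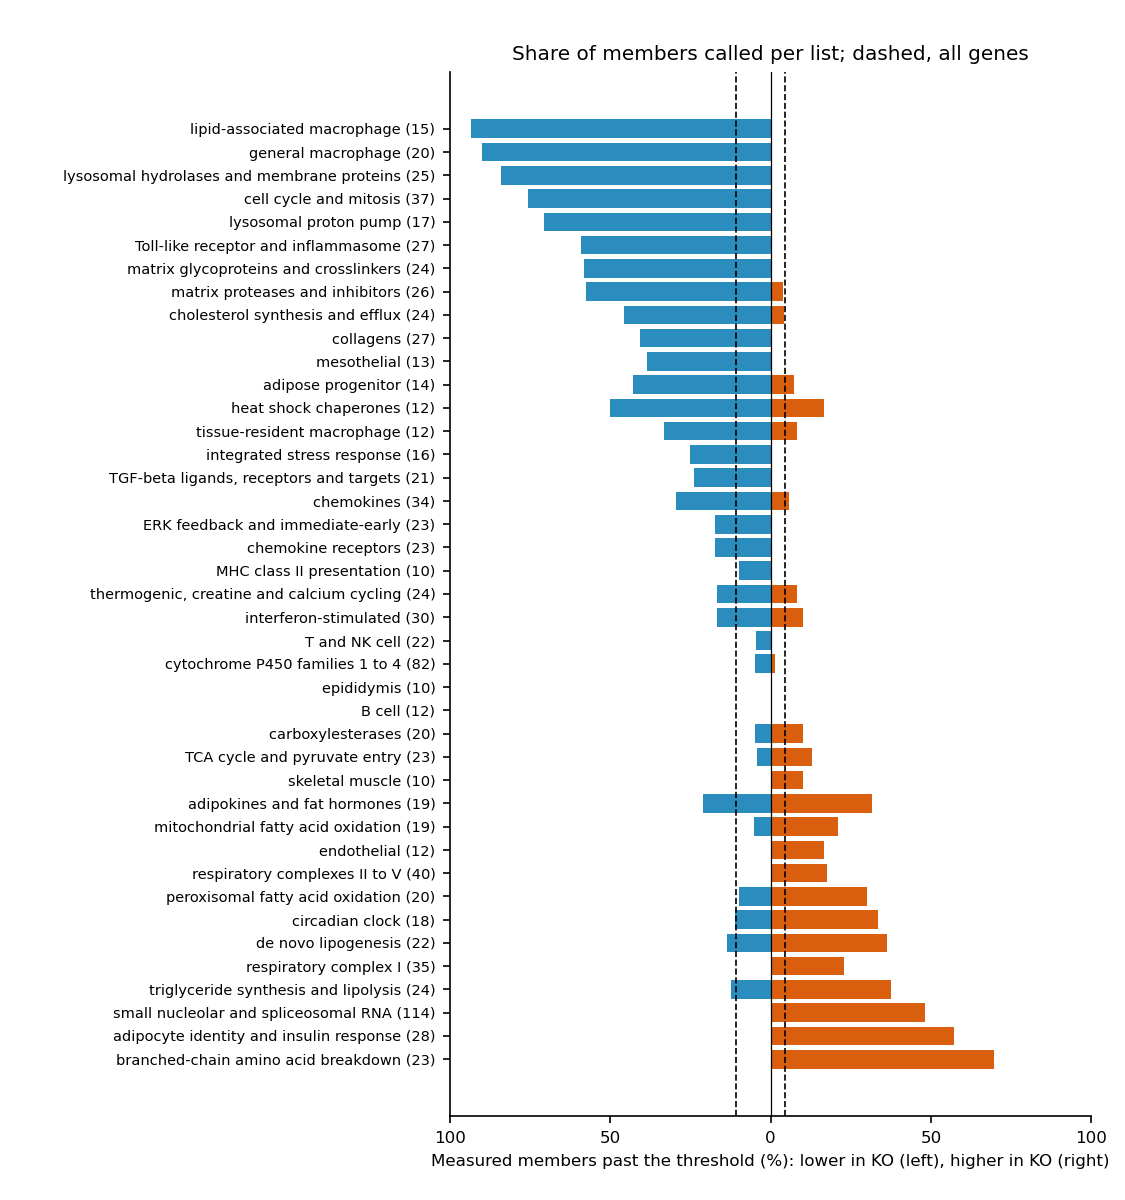
Percent of the measured members of each gene list of at least 10 genes that passed the limma threshold, lower in KO to the left and higher in KO to the right, with the number of measured members beside each name; dashed lines give the percent among all genes, 10.7% lower and 4.57% higher. Macrophage, lysosomal and cell cycle lists extend to the left, adipocyte, branched-chain amino acid and small nucleolar RNA lists to the right.

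Collagen genes fell in part in KO eWAT. Of 27 collagen genes 11 fell and 0 rose, with a median of -0.28. The chain of collagen I *Col1a1* measured 8.95, 8.75, 8.28 and 8.73 in WT and 7.12, 8.13, 7.20 and 6.85 in KO mice (-1.35, q = 0.0123), the fibril-associated *Col12a1* changed by -1.81 (q = 0.0103), and of collagen VI, typical of fat, *Col6a1* by -0.74 (q = 0.0333), *Col6a2* by -0.90 (q = 0.0128) and *Col6a3* by -0.61 (q = 0.0246). Basement membrane collagens such as *Col4a1* (0.03, q = 0.921) and *Col4a2* (-0.17, q = 0.57) were not past the threshold. With 1 array fewer the collagen calls were 5, 3, 10 and 4 without WT replicates 1 to 4 and 6, 12, 8 and 5 without KO replicates 1 to 4. *Col6a1* and *Col6a3* were each not past the threshold without at least 1 of the following, WT replicates 1, 2, 3 and 4 and KO replicates 1, 3 and 4 (q up to 0.09, *Col6a1* without WT replicate 2).

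Proteases that remodel matrix, with their inhibitors and receptors, gave 15 falls and 1 rise among 26 genes. The leukocyte protease *Adam8* (-3.05, q = 0.0148), gelatinase A (*Mmp2*, -1.88, q = 0.0142), *Mmp12* and the urokinase receptor *Plaur* (-1.52, q = 0.0125) fell without overlap between groups. The inhibitor *Timp1* fell with overlap (-2.20, q = 0.018), whereas *Timp4*, which adipocytes express, rose from 7.70, 6.73, 7.39 and 7.26 to 7.96, 8.34, 8.24 and 7.72 (0.80, q = 0.0299), KO replicate 4 being only just above WT replicate 1. Of 24 glycoproteins, proteoglycans and crosslinking enzymes 14 fell and 0 rose, among them lumican (*Lum*, -2.56, q = 0.013), the crosslinker *Lox* (-1.38, q = 0.0195), fibronectin (*Fn1*, -1.30, q = 0.0315) and biglycan (*Bgn*, -1.28, q = 0.00828). *Lum* stood at 7.82, 8.15, 7.83 and 7.91 in WT and 4.63, 7.19, 4.56 and 5.09 in KO mice. The ligand *Tgfb1* (-1.38, q = 0.0107), its induced matrix protein *Tgfbi* (-1.24, q = 0.017), *Tgfb2* (-0.94, q = 0.00823) and the receptors *Tgfbr1* (-0.77, q = 0.0136) and *Tgfbr2* (-0.54, q = 0.0132) were the 5 of 21 TGF-beta genes that fell (4 to 7 with 1 array left out), 0 rose, and the SMAD transducers *Smad2* (-0.12, q = 0.487) and *Smad3* (-0.23, q = 0.308) were not past the threshold. Protease falls numbered 10, 7, 11 and 8 without WT replicates 1 to 4 and 10, 18, 11 and 9 without KO replicates 1 to 4, and falls of glycoproteins and crosslinkers 5, 3, 12 and 3 without WT replicates 1 to 4 and 7, 17, 8 and 5 without KO replicates 1 to 4. *Timp1*, *Timp4*, *Lox*, *Fn1* and *Tgfbi* were each not past the threshold without at least 1 of the following, WT replicates 1, 2, 3 and 4 and KO replicates 1, 3 and 4 (q up to 0.0845, *Fn1* without WT replicate 4).

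Of 14 adipose progenitor markers 6 fell (3 to 8 with 1 array left out) and 1 rose (0 to 1 with 1 array left out). The growth factor receptors *Pdgfra* (-1.13, q = 0.0359) and *Pdgfrb* (-0.93, q = 0.0111), the peptidase *Dpp4* (-1.02, q = 0.0154) and the stem cell antigen *Ly6a* (-0.68, q = 0.0225) fell, and *Cd24a* rose (0.50, q = 0.0489). Mesothelial markers fell in 5 of 13 cases, led by *Gpm6a* (-1.99, q = 0.0166), *Upk3b* (-1.62, q = 0.0146), *Muc16* (-0.99, q = 0.0166) and mesothelin (*Msln*, -0.98, q = 0.035), while the keratins *Krt8* (0.01, q = 0.982) and *Krt18* (-0.11, q = 0.465) were not past the threshold. WT mice themselves differed in this list, from -0.64 in replicate 3 to 0.63 in replicate 1 relative to their mean, and 8 markers fell without WT replicate 3 and 1 without WT replicate 2. Endothelial genes went the other way, with 2 of 12 higher (1 to 4 with 1 array left out), *Egfl7* (0.91, q = 0.0103) and *Emcn* (0.42, q = 0.0231), and 0 lower. Of 5 lymphatic genes 1 fell, *Pdpn* (-1.32, q = 0.0151), which fibroblasts and macrophages express as well, and *Prox1*, the regulator of lymphatic identity, was not past the threshold (0.18, q = 0.207). *Pdgfra*, *Ly6a*, *Cd24a*, *Gpm6a*, *Muc16*, *Msln*, *Emcn* and *Pdpn* were each not past the threshold without at least 1 of the following, WT replicates 1, 2, 3 and 4 and KO replicates 1, 3 and 4 (q up to 0.131, *Cd24a* without WT replicate 4).

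Adipocyte genes rose in KO eWAT. Of 28 genes of adipocyte identity and of the insulin response 16 rose and 0 fell, with a median log2 fold change of 0.58. The beta-3 adrenergic receptor *Adrb3*, through which catecholamines start lipolysis, measured 6.58, 5.58, 6.10 and 6.07 in WT and 8.72, 7.32, 8.45 and 8.79 in KO mice. No KO mouse overlapped the WT range, and replicate 2 was the lowest KO mouse. The fold change of *Adrb3* was 2.24 (standard error 0.32, adjusted p = 0.00823). The insulin-regulated factor *Klf15* (1.95, q = 0.00813), the activin receptor *Acvr1c* (1.31, q = 0.00981) and the adipogenic factor *Cebpa* (1.13, q = 0.00823) rose next.

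*Pparg*, the master regulator of adipocytes, measured 8.32, 8.20, 8.18 and 8.11 in WT and 9.04, 8.41, 8.75 and 9.07 in KO eWAT (0.61, q = 0.0203). The fatty acid binding protein *Fabp4* rose slightly (0.24, q = 0.0448), and the fatty acid carrier *Cd36* was not past the threshold (0.01, q = 0.923). Of the insulin cascade, the receptor *Insr* (0.75, q = 0.0155), the adaptor *Irs1* (0.64, q = 0.00782), the kinase *Akt2* (0.62, q = 0.0214) and the glucose carrier *Slc2a4*, or GLUT4 (0.94, q = 0.0177), rose, and *Irs2* was not past the threshold (0.21, q = 0.191). With 1 array left out, calls in the list came to 13, 9, 12 and 9 without WT replicates 1 to 4 and 11, 16, 16 and 11 without KO replicates 1 to 4, and the list's median lay between 0.48 and 0.71. *Pparg*, *Insr* and *Akt2* were each not past the threshold without at least 1 of the following, WT replicates 1, 2, 3 and 4 and KO replicates 1 and 4 (q up to 0.0697, *Akt2* without WT replicate 2).

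Hormones of fat split by direction, with 6 of 19 genes higher (4 to 6 with 1 array left out) and 4 lower (2 to 4 with 1 array left out). Leptin (*Lep*), whose expression follows fat mass and adipocyte size, measured 10.07, 10.28, 10.25 and 10.16 in WT and 9.60, 9.60, 8.88 and 8.74 in KO mice, a change of -0.98 (q = 0.0137). KO replicates 1 and 2 were nearer to WT than replicates 3 and 4. Adiponectin (*Adipoq*) measured 8.31, 7.94, 8.30 and 8.04 and 8.76, 8.64, 8.54 and 8.72, a small rise of 0.51 (q = 0.0144) without overlap. Adipsin (*Cfd*), the complement protease that obese fat loses, rose from 9.13, 7.29, 8.64 and 8.46 to 10.87, 10.28, 10.48 and 11.18 (2.32, q = 0.00877), WT replicate 2 being the lowest WT mouse for it. Resistin (*Retn*, 1.32, q = 0.0123), neuregulin 4 (*Nrg4*, 1.30, q = 0.0144), retinol binding protein (*Rbp4*, 1.28, q = 0.00871) and angiotensinogen (*Agt*, 1.19, q = 0.0363) rose as well. Meteorin-like (*Metrnl*, -1.53, q = 0.0265), *Sfrp5* (-0.74, q = 0.019) and lipocalin 2 (*Lcn2*, -0.63, q = 0.00971) fell. *Nrg4*, *Agt*, *Metrnl* and *Sfrp5* were each not past the threshold without at least 1 of the following, WT replicates 1, 2, 3 and 4 and KO replicates 1 and 4 (q up to 0.0927, *Agt* without WT replicate 2).

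**Figure D4:**
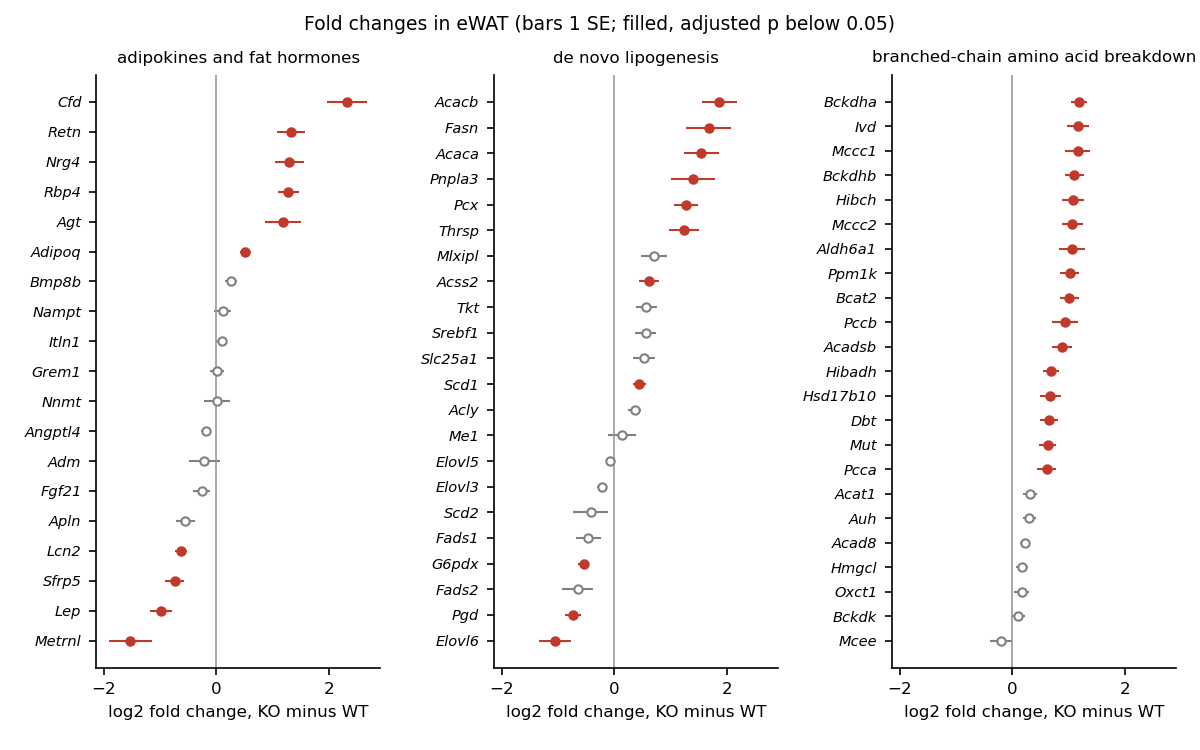
Log2 fold change, KO minus WT, of hormones of fat, enzymes of de novo lipogenesis and genes of branched-chain amino acid breakdown (points; bars are 1 standard error from limma on each side), filled where the adjusted p was below 0.05. Hormones lie on both sides of 0 from *Metrnl* (-1.53) to *Cfd* (2.32), while filled points of the branched-chain list lie only above 0.

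Lipogenic enzymes rose in part. Of 22 genes of fatty acid synthesis 8 rose and 3 fell, with a median of 0.49. Acetyl-CoA carboxylases *Acacb* (1.86, q = 0.00987) and *Acaca* (1.54, q = 0.0144), which make malonyl-CoA, fatty acid synthase (*Fasn*, 1.67, q = 0.0235) and the lipid droplet enzyme *Pnpla3* (1.40, q = 0.0433), which the same program induces, rose without overlap. *Fasn* measured 8.04, 7.25, 7.94 and 6.44 in WT and 9.56, 8.42, 8.62 and 9.76 in KO mice, with WT replicate 4 far below the other WT mice. The elongase *Elovl6* fell (-1.05, q = 0.0329), as did *Pgd* (-0.74, q = 0.013) and *G6pdx* (-0.54, q = 0.0106) of the pentose phosphate pathway, and the regulators *Srebf1* (0.55, q = 0.0764) and *Mlxipl* (0.71, q = 0.0681) were not past the threshold. With 1 array fewer the rises came to 7, 3, 6 and 4 without WT replicates 1 to 4 and 4, 12, 9 and 4 without KO replicates 1 to 4. *Fasn*, *Pnpla3* and *Elovl6* were each not past the threshold without at least 1 of the following, WT replicates 1, 2, 3 and 4 and KO replicates 1 and 4 (q up to 0.109, *Pnpla3* without KO replicate 4). *Srebf1* was past it without KO replicate 2 (q = 0.0272). *Mlxipl* was past it without KO replicate 2 (q = 0.00101).

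Of 24 genes of triglyceride synthesis and lipolysis 9 rose and 3 fell. The acyltransferase *Gpam*, which starts glycerolipid synthesis, measured 7.39, 7.00, 7.25 and 7.14 in WT and 9.41, 8.08, 8.83 and 9.35 in KO mice (1.72, q = 0.00871), and *Mogat1* (1.07, q = 0.0138), *Pck1* of glyceroneogenesis (0.94, q = 0.0117) and *Dgat1* (0.90, q = 0.0177) rose. The lipases *Lipe* (0.63, q = 0.0101) and *Pnpla2* (0.44, q = 0.0429) rose too, whereas the lipase inhibitor *Hilpda* (-1.0, q = 0.0117) and glycerol kinase (*Gyk*, -0.85, q = 0.0246) fell. The rises became 6, 5, 6 and 4 without WT replicates 1 to 4 and 7, 10, 9 and 5 without KO replicates 1 to 4. *Dgat1*, *Pnpla2* and *Gyk* were each not past the threshold without at least 1 of the following, WT replicates 1, 2, 3 and 4 and KO replicates 1, 3 and 4 (q up to 0.123, *Pnpla2* without WT replicate 2).

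Cholesterol genes fell, with 11 of 24 lower (7 to 13 with 1 array left out) and 1 higher and a median of -0.50. HMG-CoA synthase *Hmgcs1* measured 8.01, 8.87, 8.44 and 8.55 in WT and 7.56, 7.39, 7.02 and 7.48 in KO mice (-1.10, q = 0.00971), and *Dhcr7* changed by -1.0 (q = 0.00763) and *Sc4mol* by -0.96 (q = 0.0112). The sterol-sensing factor *Srebf2* fell by less (-0.53, q = 0.0232). The exporter *Abca1* rose (0.50, q = 0.0127) and *Abcg1*, typical of macrophages, fell (-0.58, q = 0.0236). Here KO replicate 3, with a list mean of -0.60 relative to WT, was the lowest and replicate 2 (-0.29) the nearest to WT. *Srebf2* and *Abcg1* were each not past the threshold without at least 1 of the following, WT replicates 1, 2, 3 and 4 and KO replicates 1 and 4 (q up to 0.0735, *Abcg1* without WT replicate 4).

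Genes for the breakdown of branched-chain amino acids, a mitochondrial pathway active in mature adipocytes, rose in KO eWAT. Of 23 genes 16 rose and 0 fell, with a median of 0.68. The dehydrogenase subunits *Bckdha* and *Bckdhb*, which commit the pathway, rose by 1.19 (q = 0.006) and 1.10 (q = 0.00894). *Bckdha* measured 6.40, 6.03, 6.12 and 6.03 in WT and 7.42, 7.03, 7.23 and 7.65 in KO eWAT, and the lowest KO mouse, replicate 2, was still well above the highest WT mouse. The transaminase *Bcat2* (1.01, q = 0.00956), the leucine enzymes *Ivd* (1.17, q = 0.0102) and *Mccc1* (1.16, q = 0.0116) and the phosphatase *Ppm1k* (1.02, q = 0.00981), which activates the dehydrogenase, rose, while the kinase *Bckdk*, which inhibits it, was not past the threshold (0.11, q = 0.614). Relative to WT the list mean was 0.82, 0.50, 0.42 and 1.05 in KO replicates 1 to 4. Single arrays left out gave 15, 10, 13 and 9 without WT replicates 1 to 4 and 10, 16, 19 and 13 without KO replicates 1 to 4.

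Respiratory chain genes rose in smaller part. Of 35 complex I subunits 8 rose and 0 fell, with a median of 0.23, and of 40 genes of complexes II to V 7 rose and 0 fell, with a median of 0.17. The subunit *Ndufa5* of complex I measured 5.50, 5.31, 5.41 and 5.10 in WT and 6.12, 5.66, 6.10 and 6.05 in KO mice (0.65, q = 0.0129), and *Ndufv1* (0.62, q = 0.0133) and *Ndufb10* (0.57, q = 0.0235) followed. *Sdha* of complex II changed by 0.67 (q = 0.0125), *Cox4i1* of complex IV by 0.68 (q = 0.00937), and of the ATP synthase *Atp5k* by 0.81 (q = 0.0072) and *Atp5e* by 0.47 (q = 0.0103). KO replicate 3 stood at the WT level in these lists, with means of -0.01 and 0.00 relative to WT against 0.18 and 0.10 in the next KO mouse. After quantile normalization the rises were 17 and 15, and with 1 array left out they were 7, 5, 6 and 5 without WT replicates 1 to 4 and 5, 10, 15 and 6 without KO replicates 1 to 4 in complex I and 4 to 9 with 1 array left out in complexes II to V. *Ndufb10* was not past the threshold without WT replicates 2, 3 and 4 or KO replicates 1 and 4 (q up to 0.0743, without WT replicate 4).

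Of 23 genes of the TCA cycle and pyruvate entry 3 rose (0 to 8 with 1 array left out), namely *Idh2* (0.50, q = 0.0274), *Pdk1* (0.31, q = 0.0229) and *Pdk2* (0.73, q = 0.0297), and 1 fell, *Pdk4* (-1.17, q = 0.0316), the kinase that fasting induces to close pyruvate entry. Quantile normalization gave 11 rises. Of 19 genes of mitochondrial fatty acid oxidation 4 rose (2 to 7 with 1 array left out), led by *Echs1* (1.00, q = 0.0187), *Etfb* (0.66, q = 0.00987) and *Eci1* (0.61, q = 0.0292), and 1 fell, *Cpt1a* (-1.22, q = 0.0136), which admits fatty acids to mitochondria. *Cpt1a* measured 8.20, 8.26, 8.13 and 8.25 in WT and 6.76, 7.86, 6.70 and 6.62 in KO mice. In peroxisomal oxidation 6 of 20 genes rose (1 to 10 with 1 array left out), with *Ehhadh* (0.95, q = 0.0192), *Pex11a* (0.83, q = 0.0103) and *Phyh* (0.78, q = 0.0163) first, and 2 fell, among them *Acot8* (-0.46, q = 0.0103). *Idh2*, *Pdk1*, *Pdk2*, *Pdk4*, *Echs1*, *Eci1*, *Ehhadh* and *Phyh* were each not past the threshold without at least 1 of the following, WT replicates 1, 2, 3 and 4 and KO replicates 1, 3 and 4 (q up to 0.0914, *Pdk2* without WT replicate 2).

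**Figure D5:**
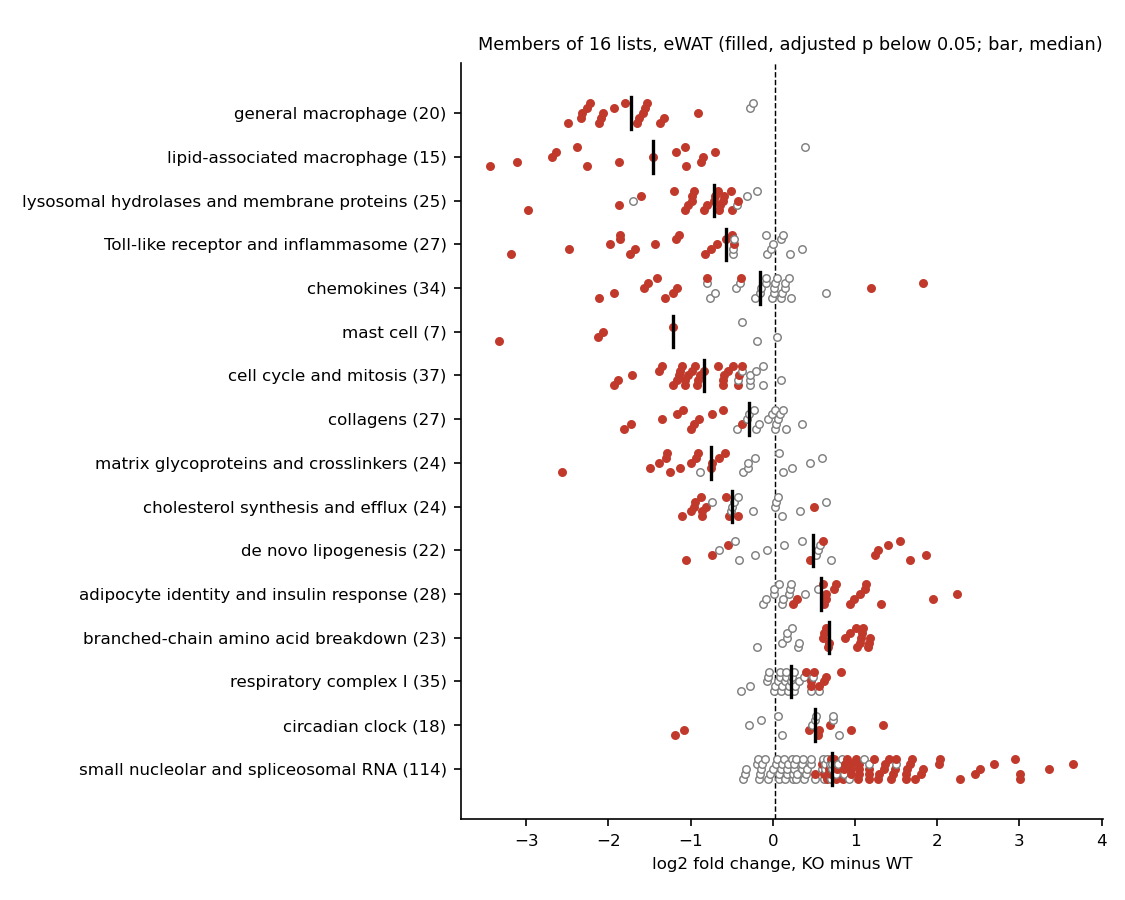
Log2 fold change, KO minus WT, of every measured member of 16 gene lists (points; filled where the adjusted p was below 0.05), with the median of each list as a bar and the median of all genes as a dashed line at 0.03. Points of the general macrophage list all lie below 0, whereas collagens, chemokines and lipogenic enzymes spread over both sides.

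Thermogenic genes gave few calls. Of 24 genes of thermogenesis, creatine and calcium cycling 2 rose (1 to 2 with 1 array left out) and 4 fell (3 to 5 with 1 array left out), with a median of -0.01. These counts were not far from the shares of all genes, 4.57% higher and 10.7% lower. *Ucp1*, the uncoupler of brown and beige fat, measured 2.52, 2.99, 2.56 and 2.60 in WT and 2.35, 2.57, 2.71 and 2.50 in KO eWAT, with both groups overlapping (-0.13, q = 0.501). *Dio2* (0.17, q = 0.372), *Prdm16* (0.19, q = 0.115), the mitochondrial creatine kinases *Ckmt1* (-0.02, q = 0.878) and *Ckmt2* (0.07, q = 0.566), the calcium pump *Atp2a2* (-0.04, q = 0.847) and the calcium channels *Ryr1* (0.00, q = 0.98) and *Ryr2* (-0.31, q = 0.114) were not past the threshold either. *Ucp3*, from 5.14, 4.41, 5.05 and 4.69 to 6.13, 5.58, 6.16 and 6.00 (1.14, q = 0.00924), and the fatty acid receptor *Ppara* (0.49, q = 0.0205) rose. The creatine carrier *Slc6a8* (-1.68, q = 0.0123), cytosolic creatine kinase *Ckb* (-1.43, q = 0.0128), the creatine-making enzyme *Gatm* (-1.22, q = 0.0178) and *Ucp2*, which macrophages express (-1.24, q = 0.0136), fell. *Ppara* and *Gatm* were each not past the threshold without at least 1 of the following, WT replicates 2 and 4 and KO replicates 1 and 4 (q up to 0.0628, *Ppara* without WT replicate 4). *Ryr2* was past it without KO replicate 2 (q = 0.0147).

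Small structured RNAs rose in KO eWAT. Of 114 small nucleolar, Cajal body and spliceosomal RNA genes, taken by the form of their symbols, 55 rose and 0 fell, with a median of 0.71. *Snora75* measured 5.21, 5.54, 5.46 and 5.77 in WT and 8.84, 8.78, 8.50 and 9.29 in KO mice, and *Rnu3a*, of the U3 family that processes ribosomal RNA, 5.75, 5.66, 5.51 and 5.55 and 8.67, 8.80, 10.45 and 9.16. Relative to WT the list mean was 0.55, 0.79, 1.49 and 0.65 in KO replicates 1 to 4, with replicate 3 the highest. Many of these RNAs lie in introns of host genes or have near-identical copies (*Rnu3a* and *Rnu3b1* among them), and how the probes of the array divide such signals is not given in the sources used here. Leaving out 1 array gave 44, 31, 34 and 29 without WT replicates 1 to 4 and 56, 60, 63 and 49 without KO replicates 1 to 4.

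Clock genes changed in part. Of 18 genes 6 rose and 2 fell. The repressor arm gene *Per3* (1.34, q = 0.0224) and the outputs *Tef* (0.69, q = 0.0472) and *Hlf* (0.44, q = 0.0217) were among those that rose, with *Cry1* (0.55, q = 0.046) and *Cry2* (0.56, q = 0.0424), and the activators *Arntl* (-1.19, q = 0.0484) and *Npas2* (-1.08, q = 0.0486) fell. *Arntl* measured 5.78, 5.39, 4.87 and 5.40 in WT and 3.41, 5.16, 4.41 and 3.69 in KO mice, the groups overlapping through KO replicate 2 and WT replicate 3. These calls rested on single arrays, with 0 rises without WT replicate 1, 2 or 4 or KO replicate 1 or 4, 3 without WT replicate 3 or KO replicate 3 and 12 without KO replicate 2. The hour at which each mouse was killed is not given in the sources used here. *Per3*, *Tef*, *Hlf*, *Cry1*, *Cry2*, *Arntl* and *Npas2* were each not past the threshold without at least 1 of the following, WT replicates 1, 2, 3 and 4 and KO replicates 1, 3 and 4 (q up to 0.123, *Arntl* without WT replicate 1).

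Heat shock chaperones gave 6 falls (2 to 7 with 1 array left out) and 2 rises (0 to 1 with 1 array left out) among 12 genes, with *Hspa1b* (-1.77, q = 0.0127), *Hsph1* (-1.24, q = 0.019), the cochaperones *Bag3* (-0.57, q = 0.0117) and *Dnajb1* (-0.46, q = 0.0189) lower and the mitochondrial *Hspd1* (0.40, q = 0.0261) and the small *Hspb8* (0.45, q = 0.0432) higher. Of 23 genes of ERK feedback and the immediate-early response 4 fell (1 to 10 with 1 array left out), *Egr2* (-2.13, q = 0.0176), *Dusp5* (-1.21, q = 0.0184), *Spred1* (-0.99, q = 0.0164) and *Myc* (-0.60, q = 0.0317), and 0 rose, while *Fos* was lower in every KO mouse without passing the threshold (-1.41, q = 0.0732). In the integrated stress response 4 of 16 genes fell (2 to 7 with 1 array left out), namely *Aldh18a1* (-1.21, q = 0.00877), the amino acid carrier chains *Slc7a5* (-0.76, q = 0.00566) and *Slc3a2* (-0.48, q = 0.0213) and the hormone *Gdf15* (-0.46, q = 0.0274), and its effector *Atf4* was not past the threshold (-0.19, q = 0.193). *Hsph1*, *Dnajb1*, *Hspd1*, *Hspb8*, *Egr2*, *Dusp5*, *Spred1*, *Myc*, *Slc3a2* and *Gdf15* were each not past the threshold without at least 1 of the following, WT replicates 1, 2, 3 and 4 and KO replicates 1, 2, 3 and 4 (q up to 0.114, *Hspb8* without WT replicate 4). *Fos* was past it without KO replicate 2 (q = 0.0247).

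Of 82 cytochrome P450 genes of families 1 to 4, 1 rose, *Cyp2e1*, and 4 fell (2 to 5 with 1 array left out), *Cyp1b1* (-1.14, q = 0.0268), *Cyp2c70* (-0.97, q = 0.0117), *Cyp2s1* (-0.89, q = 0.0217) and *Cyp2r1* (-0.88, q = 0.0147). In both directions this family gave a smaller share of calls than all genes did (4.57% higher, 10.7% lower). Of 20 carboxylesterases *Ces1f* (2.28, q = 0.00426) and *Ces1d* (1.67, q = 0.00823), a triglyceride hydrolase of fat, rose, and *Ces2g* (-1.37, q = 0.01) fell. *Ces1f* measured 5.57, 5.09, 5.49 and 4.87 in WT and 7.35, 7.36, 7.29 and 8.13 in KO eWAT. Genes of both families lie in clusters of close copies, whose signals probes may share. *Cyp1b1*, *Cyp2s1* and *Cyp2r1* were each not past the threshold without at least 1 of the following, WT replicates 1, 2, 3 and 4 and KO replicates 1, 3 and 4 (q up to 0.0822, *Cyp1b1* without WT replicate 2).

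Across the text, 220 of the genes given by value were past the threshold, and 115 of these stayed past it whichever of the 8 arrays was left out. The other 105 had an adjusted p above the threshold without at least 1 array, which at its highest lay between 0.0503 for *Nrg4* and 0.131 for *Cd24a*.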

How the data were processed

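Affymetrix Mouse Gene 2.1 ST arrays, 1 per mouse, measured the eWAT RNA of 4 *Gpr146* KO and 4 WT mice. The deposited values are log2 expression, with 1 value for each gene symbol in each mouse, and were used as deposited. The software, the probe summary and the normalization are not given in the sources used here. For 840 genes several probe sets had been averaged, and 1 entry whose name a spreadsheet had turned into a number was left out. The array medians lay between 3.13 and 3.18, and the number of arrays limits the precision.

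KO and WT were compared on the deposited log2 values with limma 3.58.1 (R 4.3.3), with Benjamini-Hochberg adjustment over 24646 genes and a threshold of 0.05. Each array is a separate mouse. The study's methods name an unpaired two-sided t-test in general, which was run per gene as an alternative. For the arrays they name gene set enrichment analysis, which was not run here. The Benjamini-Hochberg adjustment of the t-test was chosen here. The 49 gene lists, with 4 members not found in the table and 30 matched by an older symbol, are described by counts and medians and were given no test of their own. Members and lists were chosen with earlier results of these data known. Some genes are members of several lists, such as *Mmp12* in the lipid-associated macrophage and protease lists, and are counted in each. Genes named are *Gpr146*, the adipose genes named in the study, the 10 genes that rose most and the 10 that fell most among those past the threshold whose groups did not overlap, per list the 4 largest such changes (or the 2 smallest p), and regulators or defining members of a list. Promoters are the 250 bases before the RefSeq start. The other alternatives were a trended and robust prior, array weights, dim genes left out, quantile normalization, equal array medians, a replicate block and each array left out in turn. The fit was tested on simulated data. The tables of liver, inguinal and brown fat were not used here. A few list members are counted but not reported by name. Figures were drawn with matplotlib 3.10.9.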

Additional observations from a re-analysis of the deposited data

Results flagged for a closer look

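A mouse was looked at again where its distance to the nearest mouse of its genotype took up a larger part of the range of the 4 than Dixon's critical value allows. Of 634 groups of 4 tested over the lists and the genes given by value, 38 met this (5.99%), where chance gives about 1 in 20. In 17 of the 38 the mouse apart was KO replicate 2.

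KO replicate 2 lay above the other KO mice in the means of the matrix glycoprotein and crosslinker list (0.935 of the range) and of the adipose progenitor list (0.912). It lay above them as well in *Olfr111* (0.858), *Odf1* (0.867), *Ctsa* (0.858), *Tlr8* (0.836), *Il1rn* (0.849), *Cdk1* (0.833), *Timp1* (0.966), *Bgn* (0.838), *Tgfbi* (0.907), *Cpt1a* (0.885), *Ckb* (0.842) and *Aldh18a1* (0.942). It lay below them in *Pck1* (0.938), *Ndufa5* (0.842) and *Hspd1* (0.917). In each of these KO replicate 2 was the KO mouse nearest to the WT mean, and all the genes but *Odf1* were past the threshold.

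KO replicate 3 was the lowest KO mouse in the mean of the erythroid list (0.89), and the highest in *Crisp1* (0.839). KO replicate 4 was the highest in *Emcn* (0.962) and *Ces1f* (0.918), and KO replicate 1 the lowest in *Atf4* (0.892).

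Among WT mice, replicate 1 was the lowest in the mean of the lipid-associated macrophage list (0.884), in *Lipa* (0.93) and in *Smad2* (0.847), and the highest in *Ccr2* (0.902). WT replicate 3 was the highest in *C1qb* (0.85), *Itgax* (0.852), *Ccrl2* (0.883), *Irs2* (0.896) and *Fos* (0.956), and the lowest in *Rnase10* (0.86), *Col4a1* (0.951) and *Aldh18a1* (0.906). WT replicate 4 was the highest in the means of the TGF-beta list (0.949) and the Schwann cell list (0.864), and the lowest in the mean of the mitochondrial fatty acid oxidation list (0.876) and in *Pdk1* (0.85). The cause of these distances was not tested.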

How the results depend on the processing

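The fall of *Gpr146* kept its direction under every alternative and lay between -1.69 and -1.35 with 1 array left out. Its adjusted p was 0.0638 under the methods' t-test with Benjamini-Hochberg adjustment, and with the other alternatives it stayed past the threshold. Of the 3758 calls over all genes (1126 higher, 2632 lower), the methods' t-test left 38 after Benjamini-Hochberg adjustment (19 higher, 19 lower) and gave 6798 without adjustment (2927 higher). Array weights gave 1970 higher genes and quantile normalization 1830. With 1 array left out there were between 1448 and 5429 calls, between 380 and 1924 of them higher and between 1068 and 3505 lower. Fewer arrays alone lower the count, and the rise without KO replicate 2 was the exception.

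After Benjamini-Hochberg adjustment of the methods' t-test, 0 genes were past the threshold in the general macrophage list, 0 in the lysosomal proton pump, 0 among lysosomal hydrolases and membrane proteins, 0 in the adipocyte list, 0 in branched-chain amino acid breakdown and 0 in the cell cycle. Without adjustment that test gave 18, 13, 23, 17, 18 and 29 in the same order. With 1 array left out limma gave 3 to 18, 6 to 14, 6 to 24, 9 to 16, 9 to 19 and 15 to 27.

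The labels do not say whether mice of the same replicate number were matched. Deviations from the group means correlated by 0.04, 0.16, 0.02 and 0.00 between WT and KO mice of replicates 1 to 4. Such weak correlations cannot exclude matching, so a replicate block was run as an alternative. With the replicate block 3405 genes were called, and the fold change of *Gpr146* was -1.53 (adjusted p = 0.0147). No named gene that was called changed direction under any alternative. Of the 220 named genes past the threshold, 16 lost their call after quantile normalization, 13 with the block, 4 with equal array medians, 1 with array weights, 3 when the prior was trended and robust, and 0 of the 212 kept with dim genes left out.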

Other observations

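The values describe RNA of a whole depot from 8 mice. Cell counts, fat mass and adipocyte size of these 8 mice were not analysed here, so a change in the mix of cells and a change within cells cannot be told apart. Macrophage, lysosomal, cell cycle and matrix genes had KO replicate 2 nearest to WT, while its *Gpr146* value was the lowest of all mice. Dim genes carry little signal over background on arrays, and a gene not past the threshold is not shown to be equal in KO and WT mice.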
